A study of Mus musculus with 6 samples.

Results

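The miR-154 family is a group of related microRNA (miRNA) precursors in the imprinted Dlk1-Dio3 domain on mouse chromosome 12. Its members were taken as all array names whose stem is miR-154, miR-300, miR-323, miR-369, miR-377, miR-381, miR-382, miR-409, miR-410 or miR-487b, with either arm and whether or not a signal was seen. These 10 stems gave 16 of the 690 miRNA names on the array. Levels were measured on 1-colour Agilent miRNA arrays in cells sorted from transgenic SMA-GFP mice, in which GFP reports smooth muscle actin (SMA). Both groups were sorted as CD45-negative and CD31-negative, markers of blood and endothelial cells. The GFP-low group held fibroblast-like cells of the dermis with weak SMA-GFP, and the GFP-high group held myofibroblasts with strong SMA-GFP from wounds at day 7 of healing. There were 3 arrays a group, each of 1 preparation, and the numbers in the array titles serve as names (skin 1, 2 and 5, and wound 3, 4 and 6). Tissue, injury and GFP level differed together between the groups, and the sort on this reporter sets which cells of a wound were seen. Mouse strain, age and the number of animals behind each preparation are not given in the sources used here, so the p-values cover only the spread from preparation to preparation, part of which may be technical.

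miRNAs are cut from hairpin precursors, and each hairpin can release a mature miRNA from its 5′ arm (5p) and from its 3′ arm (3p). Bases 2 to 8 of the mature miRNA, the seed, pair with target transcripts, and the target is then repressed. The miRNAs of the Dlk1-Dio3 domain are expressed from the maternal chromosome as part of long noncoding transcripts, are abundant in the embryo, placenta and brain, and are low in most other adult tissues. Several members have been studied in fibrosis or in stromal cells. miR-154 has been described in lung fibroblasts of pulmonary fibrosis, miR-377 in the rise of fibronectin in diabetic kidney disease, miR-382 in kidney fibrosis and miR-409 in tumour-associated fibroblasts. miR-369 has been used to reprogram somatic cells to pluripotency.

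The family is held together by its hairpins rather than by a common seed, which the sequences below show. They come from RefSeq (GRCm38.p6), which held 15 of the 16 names, 11 of the 12 that could be tested among them. The tested mature miRNAs are written 5′ to 3′ in the order of their genes, with the seed in capitals, because the seed sets which transcripts a miRNA pairs with.
miR-300-3p: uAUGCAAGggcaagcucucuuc
miR-381-3p: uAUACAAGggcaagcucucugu
miR-382-5p: gAAGUUGUucgugguggauucg
miR-382-3p: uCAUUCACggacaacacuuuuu
miR-154-5p: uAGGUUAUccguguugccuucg
miR-154-3p: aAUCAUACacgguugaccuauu
miR-377-3p: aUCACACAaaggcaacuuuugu
miR-409-5p: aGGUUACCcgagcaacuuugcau
miR-409-3p: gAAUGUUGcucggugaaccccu
miR-369-5p: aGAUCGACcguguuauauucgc
miR-410-3p: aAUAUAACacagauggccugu

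The 15 matched members carried 15 different seeds, so no seed was shared within the family. Outside it, the seed of miR-410-3p was shared with miR-344d-3p and miR-344e-3p, neither of which is among the array's names. miR-300-3p and miR-381-3p were the closest pair. Counted from 1 at the 5′ end, with the base of miR-300-3p first, they differed by G4A in the seed and by U21G and C22U at the 3′ end, and they shared a run of 16 bases. Whether a probe for either of them also captures the other was not tested. Next came miR-154-3p and miR-369-3p, with 4 differences over 21 bases, of which C4A lies in the seed.

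The hairpins show the kinship more plainly. The 3 hairpins whose arms could both be tested are shown, with the measured arms in capitals.
Mir154, chr12:109738433-109738498, plus strand: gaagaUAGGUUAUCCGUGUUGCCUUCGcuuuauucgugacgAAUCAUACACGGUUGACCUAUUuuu
Mir382, chr12:109733771-109733846, plus strand: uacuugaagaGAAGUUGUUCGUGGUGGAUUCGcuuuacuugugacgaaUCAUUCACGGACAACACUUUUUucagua
Mir409, chr12:109743158-109743236, plus strand: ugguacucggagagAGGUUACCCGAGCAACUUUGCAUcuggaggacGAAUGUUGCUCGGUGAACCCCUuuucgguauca

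The run UUCGCUU, which ends the 5′ arm and opens the loop in Mir154, was present on the transcribed strand of 7 of the 10 family hairpins and of 1.19% of the 1005 hairpins in the RefSeq table. It was chosen after the sequences were seen and is a description of them. In gene order all 10 hairpins lay between Dlk1 and Dio3, beyond the noncoding gene Rian, and 5 of them lay inside the noncoding gene Mirg. They spanned 31288 bases, in which the table holds 30 miRNA hairpins. Mir409, Mir369 and Mir410 were the most tightly packed, with 181 and 218 bases between successive family hairpins. Between Mir409 and Mir369 the table holds 1 hairpin from outside the family. Mir323 stood farthest from the rest, 11719 bases before Mir300.

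The sorted cells carried mesenchymal miRNAs. Of 7 miRNA names listed as markers of fibroblasts and other mesenchyme, 6 were well above background throughout the skin group and 7 throughout the wound group. Their summed scaled signal was 24.0 to 28.7 in skin and 33.6 to 36.2 in the wound cells, and in limma 1 of the 7 was higher and 2 were lower. Of 12 keratinocyte names 2 were so on all skin arrays and 0 on all wound arrays, with sums of 0.120 to 0.204 in skin and 0.00513 to 0.00920 in the wound cells. None of the 8 striated muscle names and none of 7 blood cell names (miR-142, miR-144, miR-150 and miR-223 among them) passed the background criterion on every array of either group. Of 3 names of the miR-143 and miR-145 smooth muscle pair 1 was above background on all skin arrays and 2 on all wound arrays, with sums of 0.176 to 0.206 and 0.422 to 0.444. Of 2 endothelial names 1 was above background on all arrays of both groups despite the CD31 sort, with sums of 0.0363 to 0.0583 and 0.0555 to 0.0773, and it was not called. Of 8 neural names 1 was above background on all skin arrays and 0 on all wound arrays, with sums of 0.0574 to 0.0854 and 0.0451 to 0.0639, and it was lower in limma. The keratinocyte, smooth muscle and mesenchymal sums did not overlap between the groups, and their part in the results on the family was not tested. In sorted populations such as these, more cells with a miRNA and more of it per cell cannot be told apart. The authors' deposited log2 table numbers its columns differently from the array titles. Its columns 1, 2 and 3 equal the arrays titled 3, 4 and 6, and its columns 4, 5 and 6 equal those titled 1, 2 and 5, over 656 shared rows. The groups here follow the array titles. If the table's column numbers were taken as the title numbers instead, each group would mix arrays of both kinds. By limma 0 of the 12 testable family members then passed (adjusted p = 0.935 for each, and 0 at an unadjusted p under 0.05), and 10 differences had the opposite sign.

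The comparison asked whether the family, as part of the imprinted domain named in the series title, differed between wound myofibroblasts and GFP-low skin cells. Every member that could be tested was higher in the wound cells. Testing required a probe well above background throughout a group, which 12 of the 16 family names had. In limma all 12 were higher and 0 were lower, with 0.05 as the threshold after Benjamini-Hochberg adjustment (0 were lower at an unadjusted p under 0.05 too). Of all 222 tested miRNAs 44.1% were called higher and 20.7% lower. The 3 wound values lay above the 3 skin values in all 12 members and in 48.6% of all tested miRNAs. Only 4 of the 12 (miR-300-3p, miR-377-3p, miR-382-5p and miR-154-5p) were well above background on every skin array. The other 8 passed the filter through the wound arrays alone and could hardly come out lower. Among all 33 tested miRNAs with no skin array above background, 84.8% were called higher, so their count says little about the family. Among the 156 miRNAs well above background on all 6 arrays, 37.8% were called higher, against 4 of 4 family members. These 4 also had all wound values above all skin values, as did 42.9% of the 156. The median log2 difference of the 12 was 2.44, and 2.52 with the 8 at their lower bounds, against 0.38 over the 222. This contrast is set in part by the filter, which 8 of the 12 passed through the wound arrays alone, against 50 of the 222. Restricted to the 4 members and the 156 miRNAs measured everywhere, the medians were 3.53 and 0.24.

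**Figure D1:**
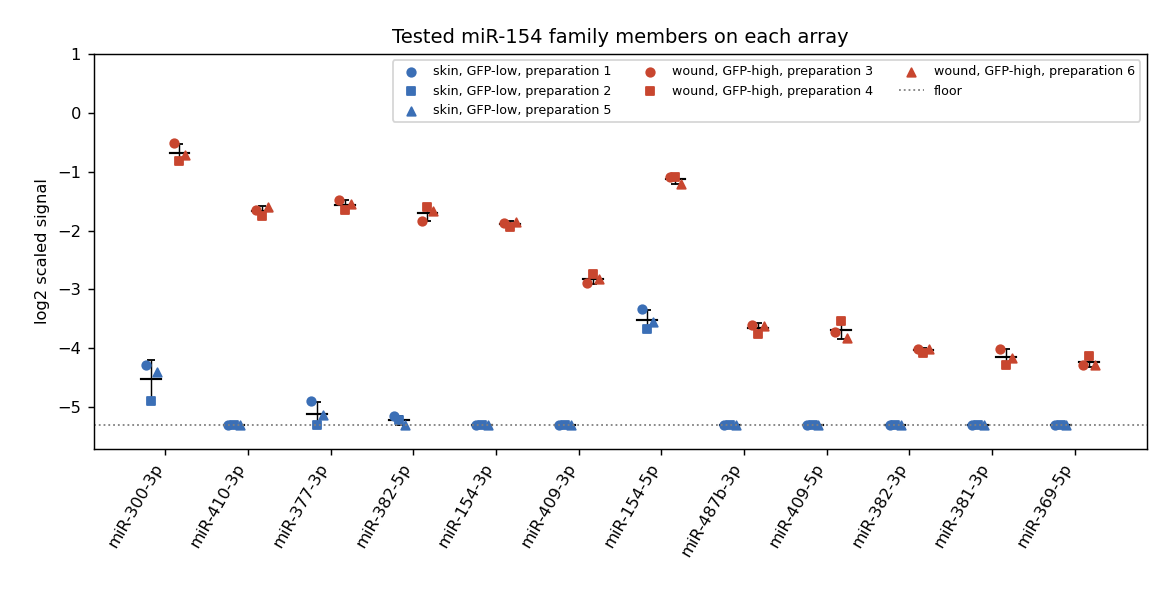
Log2 scaled signal (y axis) of the 12 tested family members on each array, with skin preparations in blue and wound preparations in red, the mean as a bar and the SD as a whisker, and the floor of -5.30 dotted. All wound points lie above all skin points of the same miRNA, and 8 members sit at the floor on every skin array. Levels of different miRNAs come from different probes and are not compared.

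Of the 4 members with a measured skin level, mmu-miR-300-3p had the largest rise. Its log2 scaled signal was -4.28, -4.89 and -4.41 in skin 1, 2 and 5 and -0.52, -0.82 and -0.72 in wound 3, 4 and 6. The lowest wound value lay far above the highest skin value, and skin 2 was the lowest preparation. The means were -4.53 ± 0.32 (SD, n = 3) and -0.69 ± 0.15, a rise of 14.3-fold with a 95% interval of 10.2 to 20.1 (log2 3.84, SE 0.19, limma adjusted p = 3.9e-05).

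mmu-miR-377-3p, the member linked to fibronectin, stood at -4.90, -5.30 and -5.14 in skin and at -1.48, -1.65 and -1.55 in the wound cells. Skin 2 lay at the floor, so the difference is compressed there, although 1 of its probes was above background on that array too. The rise was 11.7-fold (95% interval 9.52 to 14.5, log2 3.55, SE 0.12, limma adjusted p = 7.7e-06).

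mmu-miR-382-5p, which has been studied in kidney fibrosis, was just above the floor in skin. It read -5.15, -5.22 and -5.30 there, with skin 5 at the floor, and -1.84, -1.61 and -1.67 in wound 3, 4 and 6. This gave an 11.4-fold rise (95% interval 9.91 to 13.2, log2 3.52, SE 0.08, limma adjusted p = 3.5e-06). With the floor 4 times as low the SE was 0.10. Before scaling skin 5 was the brightest skin array, with 41.9, 33.4 and 44.3 units in skin 1, 2 and 5.

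mmu-miR-154-5p was the member whose skin signal stood clearest above the floor, and it rose least of these 4. Its values were -3.34, -3.68 and -3.55 in skin and -1.08, -1.10 and -1.21 in the wound cells. The rise was 5.24-fold (95% interval 4.37 to 6.28, log2 2.39, SE 0.10, limma adjusted p = 2.3e-05). Under the main processing its interval does not reach those of the other 3, whose intervals overlap one another. With the normexp alternative described below, miR-154-5p stood at 1.04 (SE 0.07), close to 1.09 (SE 0.06) for miR-382-5p. In none of these 4 members did the groups overlap. Under the main scaling miR-300-3p, miR-377-3p and miR-382-5p had the 3 largest differences among the 156 miRNAs above background on all arrays, and miR-154-5p was number 13. The lead was small, as miR-379-5p of the same domain stood at 3.42 (SE 0.18). Ranks under other settings are not given here. In the 3 members other than miR-382-5p skin 2 was the lowest skin preparation, and skin 1 was the highest in all 4. No wound preparation stood apart in the 12 members: wound 3 was lowest in 3, wound 4 in 7 and wound 6 in 2, and the 3 wound values of a member lay within 0.07 to 0.30 of each other on the log2 scale.

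The sizes of these 4 rises depended on the processing, and all 4 were called under each scaling and correction named here. Under these settings 52 to 99 of all 222 tested miRNAs were called higher. With the 75th percentile of all probes as the scale the log2 differences were 3.16, 2.95, 2.84 and 1.71 for miR-300-3p, miR-377-3p, miR-382-5p and miR-154-5p, each below the interval given above. With the median of the probes on the log2 scale miR-377-3p stood at 2.67. An alternative that changed several steps at once (normexp with an offset of 50 on median spot signals, then quantile normalization) gave 1.71, 1.24, 1.09 and 1.04 in the same order, and the limma adjusted p of the 12 members was at most 0.00347. Quantile normalization alone gave 3.34, 2.87, 2.87 and 1.95. On the median signals, probes not above background on any array still read a median of 104 to 135 intensity units over the local background.

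**Figure D2:**
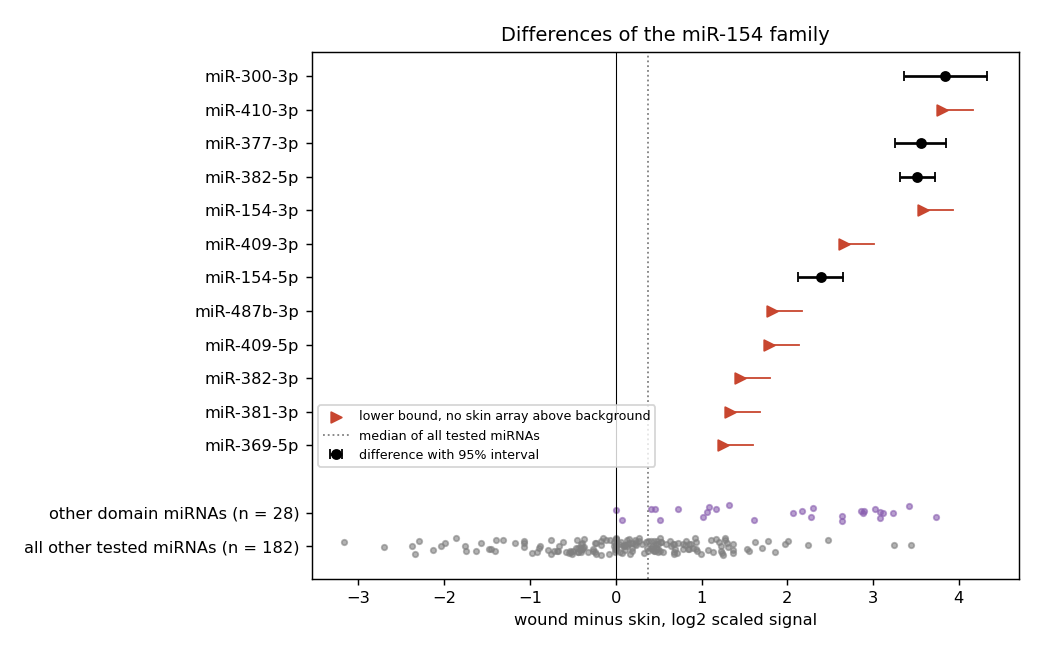
Wound minus skin difference in log2 scaled signal (x axis) for each tested family member, as a point with its 95% interval where every skin array was above background and as a red arrowhead at the lower bound elsewhere; the rows below show the other 28 tested miRNAs of the domain and the remaining tested miRNAs as single points. The family spans differences or bounds from log2 of 2.38-fold for miR-369-5p up to 3.84 for miR-300-3p, right of the dotted median of all tested miRNAs at 0.38.

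The other 8 members were not well above background on any skin array and were so on all 3 wound arrays. For these the fold is a lower bound under the main scaling. It sets the mean wound value against the mean over the skin arrays of the lowest signal that was well above background there, or the miRNA's own signal if that was higher. Their limma adjusted p lay between 5.3e-07 and 1.2e-04, but all skin values sit at the floor, where no spread is measured, so these p-values are too small. The signals as read, before any scaling, are therefore given first.

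mmu-miR-410-3p, whose gene is the last of the 10 in gene order, read 30.7, 18.7 and 29.7 background-subtracted intensity units in skin 1, 2 and 5 and 251, 323 and 375 in wound 3, 4 and 6. The rise was at least 14.0-fold. mmu-miR-154-3p read 22.6, 11.5 and 22.1 in skin and 215, 284 and 313 in the wound cells, and was at least 12.0-fold higher. In both, every wound reading lay above every skin reading. Other scalings lowered these sizes. With the 75th percentile of all probes as the scale, the log2 difference fell from 3.63 to 3.15 for miR-410-3p and from 3.41 to 2.94 for miR-154-3p. Over the 275 probes well above background everywhere, which set the main scaling, the wound arrays were the dimmer ones. Their scaling percentiles were 786 to 1136 units against 1244 to 1772 in skin.

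miR-409-3p, described in tumour-associated fibroblasts, was close to 0 in skin, with 5.32, 2.85 and 3.87 units, and read 106, 165 and 160 in the wound cells. It was at least 6.32-fold higher. Its partner arm miR-409-5p read 3.55, 4.54 and 6.21 in skin against 59.4, 94.4 and 80.2, and was at least 3.44-fold higher. miR-487b-3p was at least 3.54-fold higher, with 9.71, 7.13 and 8.49 units in skin and 64.9, 81.5 and 92.8 in the wound cells. These 3 had skin readings under 10 units on each array. The log2 differences of miR-409-3p, miR-409-5p and miR-487b-3p were 2.49, 1.61 and 1.65. With the 75th percentile of all probes as the scale they were 2.01, 1.14 and 1.18.

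The smallest bounds belonged to miR-382-3p, miR-381-3p and miR-369-5p. mmu-miR-382-3p read 9.31, 6.65 and 8.52 in skin against 48.6, 64.8 and 70.7 and was at least 2.72-fold higher. miR-381-3p, the near relative of miR-300-3p, read 10.9, 6.09 and 10.5 against 49.0, 56.6 and 63.1 and was at least 2.51-fold higher. miR-369-5p, of the miRNA gene used in reprogramming, read 7.56, 6.83 and 11.01 in skin against 40.4, 62.6 and 58.6 and was at least 2.38-fold higher. The height of a bound depends on how bright the wound signal is, so the bounds do not rank the changes. The bounds hold for the main scaling only. There the log2 differences of miR-382-3p, miR-381-3p and miR-369-5p were 1.27, 1.15 and 1.07. With the 75th percentile of all probes as the scale they were 0.80, 0.68 and 0.60. Normexp with quantile normalization gave 0.34, 0.27 and 0.28. With the floor 4 times as high, 5 of the 8 (miR-369-5p, miR-381-3p, miR-382-3p, miR-409-5p and miR-487b-3p) lay under it on all arrays and lost their calls. With the floor 4 times as low, the 8 differences were 3.07 to 4.49.

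**Figure D3:**
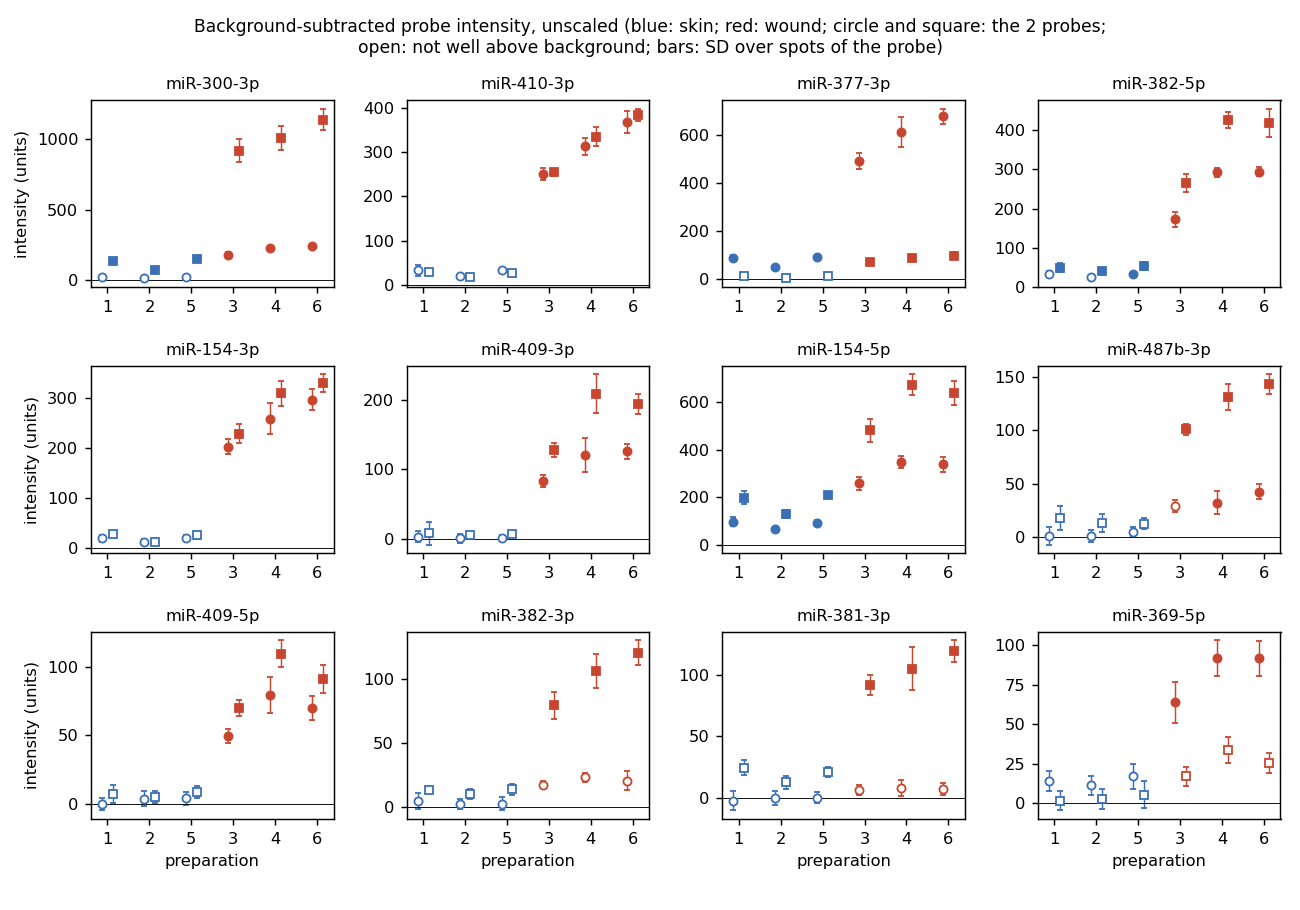
Background-subtracted intensity of each probe (y axis, linear, unscaled, mean over its spots with the SD over spots as whiskers) by preparation for the 12 tested members, 2 probes a member, skin in blue and wound in red, open symbols where the probe was not well above background. For miR-410-3p and miR-154-3p both probes rise together, while miR-381-3p, miR-382-3p and miR-369-5p rest on 1 probe.

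Each tested member had 2 probes of 10 spots each, and the probes bear on how firmly each value stands. Of these 24 probes 20 were well above background on all wound arrays, and in each of the 20 all wound values lay above all skin values. Only 5 of the 24 were well above background on all skin arrays. For the rest of the 20 this order was largely set by their choice on the wound arrays. Both probes were well above background on all wound arrays for 8 members and a single probe for the other 4, miR-369-5p, miR-381-3p, miR-382-3p and miR-487b-3p. The level of those 4 is the mean of a bright and a dim probe and so understates the bright probe. The bright probe of miR-381-3p read 24.5, 12.5 and 21.0 units in skin and 91.5, 105 and 119 in the wound cells, while its other probe stayed between -2.67 and 8.01 on all arrays. The brighter miR-300-3p probe read 133, 72.5 and 146 in skin and 919, 1012 and 1142 in the wound cells, a difference of 3.77 on the log2 scale. The other read 19.7, 11.2 and 20.9 against 179, 230.0 and 238 and was not above background in skin. The probes of miR-154-5p, both above background on all arrays, gave 2.50 and 2.34. Of those of miR-382-5p 1 was above background on all skin arrays and gave 3.49. Its partner was so on 1 skin array and lay at the floor on every skin array. For miR-377-3p the probe above background in skin gave 3.62. The other was at the floor on all skin arrays, so its difference is not measured.

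Where both arms of a hairpin were tested, both were higher in the wound cells. This held for Mir154, Mir382 and Mir409. However, miR-154-3p, miR-382-3p and both arms of Mir409 lay at the floor on every skin array and could not come out lower. Of these arms only miR-154-5p and miR-382-5p had a measured skin level, so the shared direction says little. For Mir154 the lower bound of miR-154-3p, 12.0-fold, lay above the upper limit of 6.28-fold for miR-154-5p. With normexp and quantile normalization the log2 differences of these arms were close, at 1.11 for 3p and 1.04 for 5p, so whether the arms changed unequally depended on the processing. For Mir382 and Mir409 the bounds do not allow such a comparison.

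The remaining 4 of the 16 names passed the background criterion on 0 of 6 arrays and were not tested: miR-300-5p, miR-323-3p, miR-323-5p and miR-369-3p. Thus miR-300 and miR-369 were seen from 1 arm and miR-323, the family hairpin farthest from the others, from neither. miR-323-3p read below 0 on all skin arrays, down to -6.02 units, and 7.04, 15.3 and 15.7 in the wound cells. miR-300-5p read 5.08, 3.85 and 4.65 in skin and 16.1, 19.0 and 15.8 in the wound cells. None of these readings met the detection criterion. miR-369-3p lay between 0.70 and 2.05 units in skin and between 6.56 and 8.00 in the wound cells, and miR-323-5p between -9.23 and -6.77 on all 6 arrays. The 5p arms of miR-377, miR-381, miR-410 and miR-487b are not among the array's names.

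The arrays lay on 1 slide in 2 rows, with skin 1, skin 2 and wound 3 in the first and wound 4, skin 5 and wound 6 in the second. All 12 members were higher in the wound cells within either row. The 8 at the floor on every skin array could not come out lower, so only the other 4 bear on the agreement of the rows. For miR-300-3p the difference was 4.07 in the first row and 3.64 in the second, for miR-377-3p 3.62 and 3.54, for miR-382-5p 3.34 and 3.66 and for miR-154-5p 2.42 and 2.40. Scaling changed the sizes and not the calls of the family. Under the 5 scalings, of which 4 are alternatives, all 12 members were called higher, as were 52 to 98 of all 222 tested miRNAs. The 8 not detected in skin could hardly come out lower under any of these scalings. The median difference of the 12 was between 1.86 and 2.44, while that of all tested miRNAs moved between -0.19 and 0.38.

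**Figure D4:**
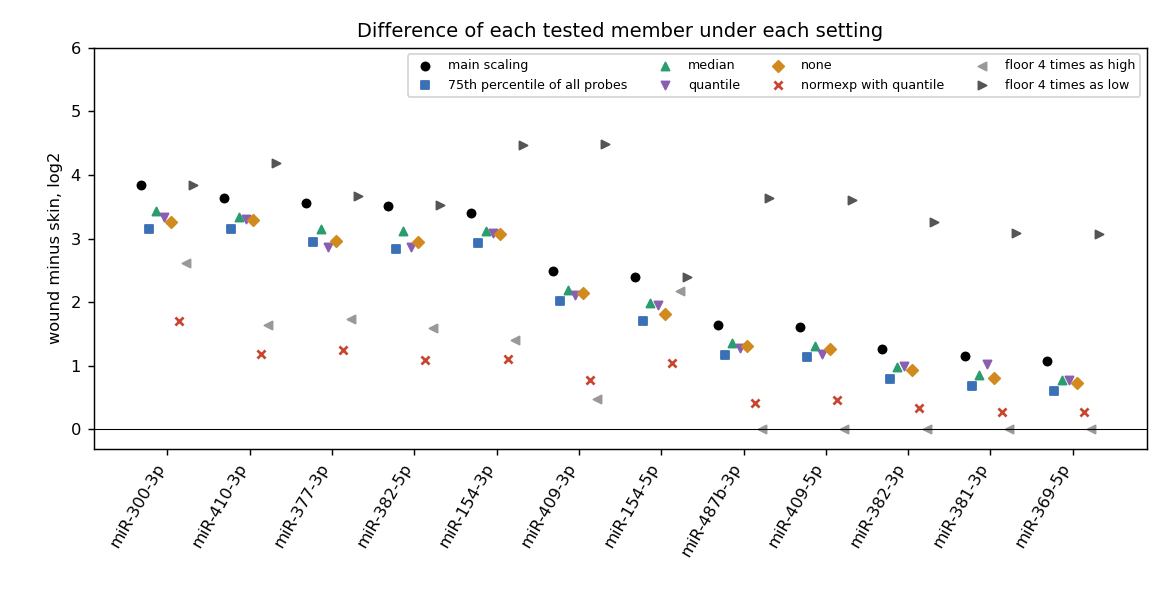
Wound minus skin difference on the log2 scale (y axis) of each tested member under the main scaling, 4 other scalings, normexp background correction and a floor 4 times as high or as low. No point lies below 0, the main scaling gives the highest value of the 5 scalings, and 5 members fall to 0 with the raised floor.

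Of 60 other domain names on the array 30 were above background on no array and 28 were tested. In limma 24 of the 28 were higher, where 44.1% of all tested miRNAs were, 0 were lower (0 also at an unadjusted p under 0.05) and 4 did not pass. Their median difference was 2.22, against 2.44 for the family. As in the family, many of them (17 of the 28) passed the filter through the wound arrays alone. Among those above background on all arrays 9 of 11 were higher, where 37.8% of all such miRNAs were. The domain stands in the title of the series, so these counts are not independent evidence of its direction. The difference between the family and the rest of the domain was not tested. The 5 miRNAs outside the family whose centred profile over the 6 arrays was nearest to the mean profile of the 4 members measured everywhere were all from this domain. These were miR-127-3p, miR-379-5p, miR-434-3p, miR-337-5p and miR-329-3p, at root mean square distances of 0.09, 0.12, 0.13, 0.15 and 0.17 on the log2 scale, chosen from 152 candidates with a median distance of 1.58. The distance is dominated by the difference between the groups, which these miRNAs share in size.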

How the data were processed

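Cy3-labelled total RNA of 6 sorted preparations was read with Agilent Feature Extraction 10.7.3.1, per the file headers. The authors deposited linear spot intensity values, not normalized between arrays, and a log2 table made in a way not given in the sources used here. It equals the total signal per miRNA on the log2 scale up to 1 constant an array. Its column medians were -12.53 to -11.76.

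The background-subtracted processed signal of 1928 probes was averaged over spots without outlier flags (2.14% to 3.11% of spots were flagged and 0 were saturated). It was divided by the 75th percentile, taken per array, of the 275 probes that were well above background everywhere (786 to 1772 intensity units). A probe counted as detected, or well above background, if the scanner flagged over 50% of its spots so. Probes of a miRNA were averaged, set to at least 0.0253 (-5.30 in log2), a floor equal to the arrays' median lowest detected scaled signal, and then logged (log2). Differences of dim miRNAs are thereby compressed. limma 3.58.1 in R 4.3.3 (lmFit and eBayes, two-sided) compared 3 with 3 arrays, with p-values adjusted over all 222 tested miRNAs. The number of arrays limits the precision. Alternatives covered scaling, background correction, signal, probe summary, floor, filter, variance model, slide row and left-out arrays. All family names are named, and 5 outside miRNAs by profile distance. Members and lists were chosen with earlier results of these data known. Figures used matplotlib 3.10.9.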

Additional observations from a re-analysis of the deposited data

How the results depend on the processing

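Over all alternatives except the raised floor and the deposited table's column numbers, every tested family member was called higher in limma. Higher members numbered 7 of 12 with a floor 4 times as high, where 5 lie under the floor, and 4 of 4 under a strict filter for signal above background on every array, which tests fewer miRNAs. All tested miRNAs called higher numbered 52 with the 75th percentile of all probes, 54 with no scaling, 44 with the raised floor and 59 with this filter, against 98. Those called lower numbered 76 with the percentile of all probes and 72 with quantile normalization, against 46. Other domain members called higher were 15 with the raised floor and 9 with the strict filter, against 24. Higher calls were 40.6% of all calls with the percentile of all probes, 50.0% with median scaling, 53.2% with quantile normalization and 50.0% with no scaling, against 68.1%. Leaving out 1 array at a time gave 12 higher family members each time, 86 to 95 higher and 40 to 47 lower miRNAs and 23 to 24 higher domain members. The 8 family members at the floor on every skin array could not come out lower in any of these fits.

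With the deposited table's columns taken by number, 0 family members, 0 domain members and 0 of 202 miRNAs were called in limma (1 at an unadjusted p under 0.05), higher or lower. By the array titles this sets wound 3, wound 4 and skin 2 against wound 6, skin 1 and skin 5. Such regrouping alone tends to turn a miRNA that is high on the wound arrays to lower. Differences then turned to -0.51 for miR-154-5p, -0.88 for miR-300-3p, -3.14 for miR-369-5p, -0.78 for miR-377-3p, -0.83 for miR-381-3p, -3.17 for miR-382-3p, -0.92 for miR-382-5p, -3.70 for miR-409-3p, -3.48 for miR-409-5p and -3.38 for miR-487b-3p. In that table, as in the total signal, an undetected miRNA has 1 fixed low value. Differences with the total signal therefore reached 11.10, and 2.24 to 3.89 for the 4 members above background everywhere.

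No paired analysis was possible because the title numbers 1 to 6 run through both groups and none is shared. Signal over background limits the 8 members not detected in skin: their size is known only as a bound, and the bound holds for the main scaling.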
